A study of Homo sapiens with 2 samples.

Results

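The HOX genes encode homeodomain transcription factors that lie in 4 clusters, HOXA to HOXD, and give cells their position along the body axis. Genes in the same place in different clusters are paralogues and carry the same number, and within a cluster the low-numbered genes are anterior and the high-numbered ones posterior. In adult colon the clusters keep a positional pattern of activity, and Polycomb complexes hold inactive stretches silent while trithorax complexes keep active ones open. HOX proteins bind DNA with TALE homeodomain partners of the PBX, MEIS and PKNOX families, and retinoic acid and the CDX factors are classical inducers of the clusters.

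The members were 38 HOX genes, taken by gene symbol. They were followed in DLD-1, a colorectal carcinoma cell line of human origin with mutated endogenous p53, into which wild-type p53 had been placed stably under a tet-off system, where tetracycline keeps the transgene silent. The p53 off group was grown with tetracycline, and the p53 on group had been without it for 9 h. Each group was 1 array, so no ratio here has a replicate check, no test between the groups exists, and a lower transcript level cannot be told apart from fewer expressing cells. The labels do not say whether the transfected cells were 1 clone. Tetracycline itself differs between the groups, and its part cannot be told apart from that of p53.

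Of the 38 members, 28 had a probe set annotated to that gene alone, among 19775 such genes in all, and these 28 had 44 probe sets. The other 10 are HOXA3, HOXA4, HOXA5, HOXA6, HOXA7, HOXA9, HOXA10, HOXA11, HOXA13 and HOXD3. They are unnamed in the annotation used here or, for HOXD3, named only together with HOXD4, and no ratio is given for them. A pair of signals is given with the p53 off array first and the p53 on array after it. Where a gene had several probe sets, the brightest one over both arrays stood for it and the others served as a check. Signals under a floor of 112.4, the median of all signals on both arrays, were set to that floor. A fold with 1 signal under the floor is a bound, written "at least", and a gene with both signals under it was not measured. Among the 28, 23 were measured, of which 11 ratios were bounds, and 5 (HOXB1, HOXB13, HOXC13, HOXD4 and HOXD12) had both signals under the floor.

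The arrays also differed in measures that involve no HOX gene. The median signal was 103.0 with p53 off and 121.8 on the p53 on array, and the spike-in probe sets had a median ratio of 1.89, p53 on over p53 off. For beta-actin, the ratio of the 3' to the 5' probe set was 1.37 without and 7.29 with p53 induction. If the arrays were scaled to the spike-ins, the median over all measured genes would move on the log2 scale from 0.0035 to -0.83, so directions below are relative to the median gene. The part of these differences in the HOX values was not tested. Epithelial markers were bright on both arrays, with EPCAM at 20250 and 35534 and the intestinal cadherin CDH17 at 4690 and 4862, while KRT20 and GPA33 of the same list of 13 markers were under the floor on both. Of the markers of other cell types, 7 of 11 leukocyte, 6 of 10 fibroblast and 5 of 8 endothelial genes with a probe set were measured. PTPRC, CD3E, COL1A1, COL3A1, KDR and TEK were under the floor on both arrays. The brightest were CORO1A at 971.5 and 481.7 among the leukocyte genes, ACTA2 at 521.5 and 1145 among the fibroblast genes and, with p53 on, PECAM1 at 121.1 and 224.3 among the endothelial genes. Summed over each list, the signals were 1581 and 1857 for 11 leukocyte markers, 1144 and 2153 for 10 fibroblast markers, and 505.2 and 916.2 for 8 endothelial markers.

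The HOX clusters differed from each other in these cells. The HOXB genes 2 to 9 were above the floor with p53 off and mostly somewhat lower with p53 on. On their brightest probe sets, the 8 HOXD genes with a probe set were under the floor with p53 off, and 6 of them were above it with p53 on; a second HOXD9 probe set was above it on both arrays. HOXC4 and HOXC5 were likewise under the floor with p53 off and above it with p53 on, while HOXC10 to HOXC12 stayed near the floor on both arrays. A difference of 2-fold or more was seen upward in 7 measured HOX genes and downward in 1. The same size was reached upward by 15.3% and downward by 13.5% of all 13915 measured genes. On the probe sets used, the 7 higher genes were measured only through the p53 on array, so the count over measured members is no support for a shift. The median log2 ratio of the measured HOX genes was 0.056, against 0.0035 for all measured genes. The HOX ratios spread from -1.06 to 5.33.

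**Figure D1:**
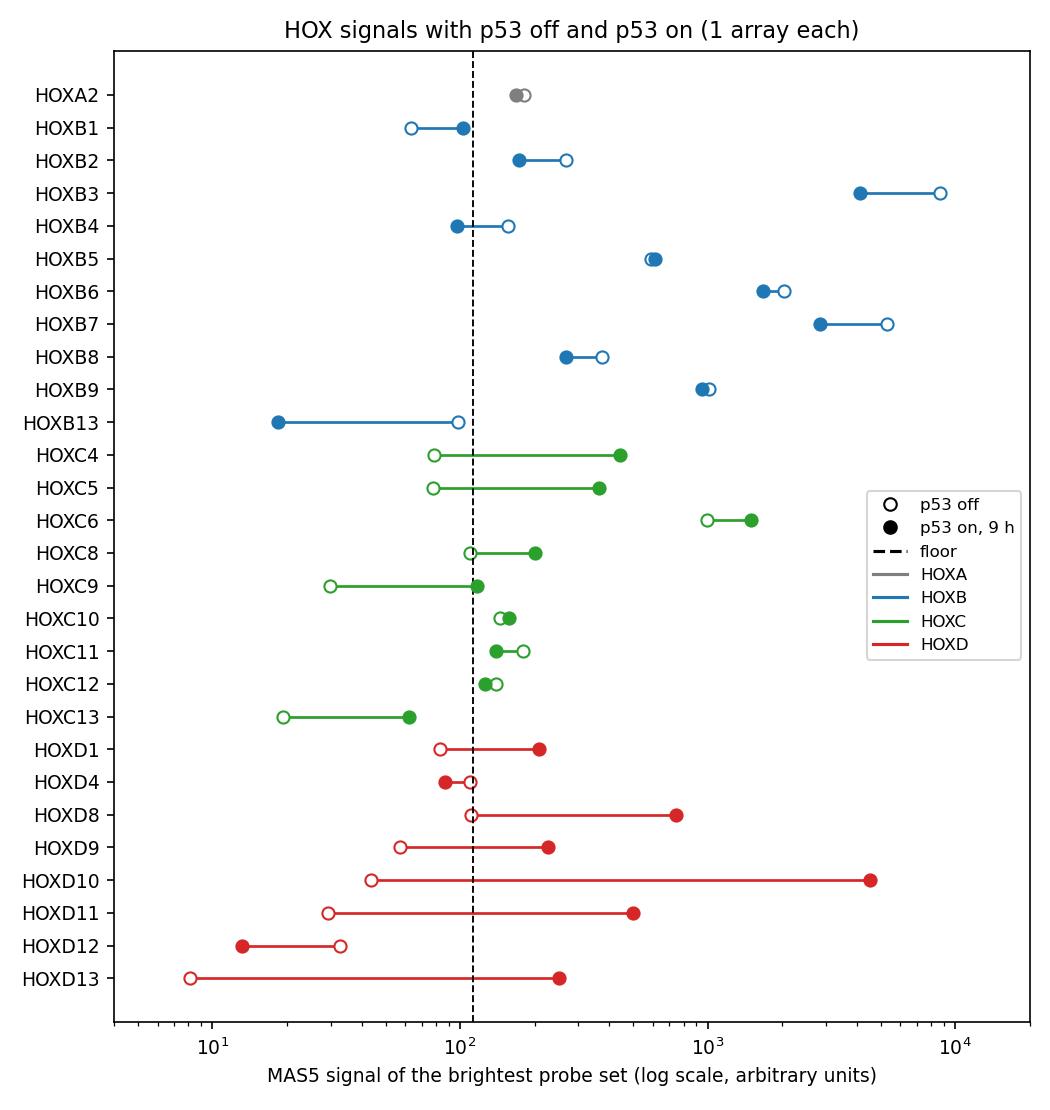
Signals of the 28 HOX genes with a probe set of their own, p53 off (open circles) and p53 on for 9 h (filled circles), on a log axis in arbitrary MAS5 units, with the floor of 112.4 as a dashed line. HOXD8, HOXD9, HOXD10, HOXD11 and HOXD13 cross the floor from left to right, while most HOXB genes lie right of it with the p53 on circle at the lower signal; signals of different genes come from different probes and are not comparable in level.

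The same genes can be counted from those that were under the floor with p53 off, without asking for a signal with p53 on, although the choice of the brightest probe set used both arrays for every gene. There were 15 such HOX genes by their brightest probe set, and 10 of them (66.7%) were at or above the floor with p53 on. Of all 7929 genes under the floor with p53 off, 26.1% were. A signal of 2-fold or more over the floor was then seen for 7 of the 15 HOX genes and for 6.91% of the 7929 genes. Markers of other cell types, which also began dim, crossed the floor in 5 of 9 cases for the leukocyte list, 3 of 7 for the fibroblast list and 3 of 6 for the endothelial list, reaching at most 247.9 among the leukocyte markers that crossed (LAPTM5). Their part in the HOX result was not tested. In the other direction, 1 of 13 HOX genes above the floor with p53 off was under it with p53 on (HOXB4), against 9.36% of all genes.

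The highest lower bounds of the measured HOX genes were those of HOXD10, HOXD8, HOXD11, HOXC4 and HOXC5. The RefSeq sequences just upstream of the starts of these genes are shown. That of HOXD4, a neighbour in the HOXD cluster that was under the floor on both arrays, is added. HOXD13 and HOXD9 were also more than 2-fold higher as lower bounds, but the HOXD13 sequence is not printed and HOXD9 had none in the RefSeq table. Each sequence is the 250 bases before the annotated start, 5' to 3', from the GRCh38.p14 assembly. CpG dinucleotides are in capitals, since CpG-rich promoters are the usual targets of Polycomb and trithorax complexes.
HOXD8 (chr2:176129455-176129704, plus strand): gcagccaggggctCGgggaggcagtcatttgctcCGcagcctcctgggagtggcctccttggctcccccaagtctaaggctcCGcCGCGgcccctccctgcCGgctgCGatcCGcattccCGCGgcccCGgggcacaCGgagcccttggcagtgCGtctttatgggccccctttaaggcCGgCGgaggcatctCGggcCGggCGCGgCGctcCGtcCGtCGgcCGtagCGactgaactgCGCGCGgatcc
HOXD10 (chr2:176116528-176116777, plus strand): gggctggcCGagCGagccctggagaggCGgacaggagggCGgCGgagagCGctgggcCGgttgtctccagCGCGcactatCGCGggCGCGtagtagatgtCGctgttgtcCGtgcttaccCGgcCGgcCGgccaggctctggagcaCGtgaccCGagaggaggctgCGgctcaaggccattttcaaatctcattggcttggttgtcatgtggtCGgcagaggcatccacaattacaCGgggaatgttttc
HOXD11 (chr2:176107030-176107279, plus strand): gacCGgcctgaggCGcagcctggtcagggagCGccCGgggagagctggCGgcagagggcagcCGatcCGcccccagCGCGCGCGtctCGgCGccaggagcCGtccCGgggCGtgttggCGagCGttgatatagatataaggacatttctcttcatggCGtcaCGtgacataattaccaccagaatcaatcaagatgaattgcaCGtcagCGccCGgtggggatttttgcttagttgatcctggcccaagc
HOXC4 (chr12:54016638-54016887, plus strand): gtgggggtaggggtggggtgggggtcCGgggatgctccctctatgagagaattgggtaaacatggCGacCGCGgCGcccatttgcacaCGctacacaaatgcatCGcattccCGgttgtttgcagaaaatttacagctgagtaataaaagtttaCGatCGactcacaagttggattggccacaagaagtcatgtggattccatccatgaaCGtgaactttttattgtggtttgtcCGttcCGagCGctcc
HOXD4 (chr2:176151300-176151549, plus strand): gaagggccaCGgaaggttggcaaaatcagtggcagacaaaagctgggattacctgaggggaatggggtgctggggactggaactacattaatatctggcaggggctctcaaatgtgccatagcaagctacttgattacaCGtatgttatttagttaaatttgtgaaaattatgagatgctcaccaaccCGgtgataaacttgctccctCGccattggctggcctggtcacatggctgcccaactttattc

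The windows of HOXD8, HOXD10 and HOXD11 held 28, 23 and 23 CpG dinucleotides and that of HOXD4 held 4, against a median of 11 over all 35116 RefSeq promoter windows of this length and of 19 over the 27 HOX windows. HOXD13 had 21 and HOXD1 had 31. HOXD12, under the floor on both arrays, had 16, and HOXD3, whose shared probe sets were also under it, had 21. HOXC4 and HOXC5 share 1 annotated start and hence 1 window, with 14 CpG dinucleotides. The CDX-type motif TTTATN, searched on both strands, was in the HOXD8, HOXD13, HOXD4 and shared HOXC4 and HOXC5 windows, not in those of HOXD10 and HOXD11, in 14 of 27 HOX windows and in 32.6% of all windows. TATAAA, which overlaps it, was in the HOXD13 window and in windows of HOXA3, HOXA9 and HOXA10, 5 of 27 HOX windows, and in 10.7% of all windows. The p53 consensus decamer was in the HOXD4 window and 1 HOXA3 window, not in those of HOXD1, HOXD8, HOXD10, HOXD11, HOXD12, HOXD13, HOXC4 or HOXC5, and in 5.57% of all windows. A match describes letters in this window alone. Of the 38 members, 20 had a window in the RefSeq table, so the 27 HOX windows are not separate genes. HOXA3 and HOXA10 had several each, and the window shared by HOXC4 and HOXC5 counted for both. Most were windows of HOXA genes, which had no probe set of their own apart from HOXA2. No HOXB gene but HOXB1 had a window, no HOXC gene but HOXC4 and HOXC5, and HOXD9 had none. The HOX window counts and median are therefore no measure of enrichment.

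In the HOXD cluster, HOXD10, a posterior gene of limb and spinal cord patterning, had the highest lower bound of the measured HOX genes. On its brightest probe set the signal was 43.6 and 4532, at least 40.3-fold higher. The next probe set read 83.4 and 947.0, at least 8.43-fold higher. The dimmest read 11.1 and 320.8, at least 2.86-fold higher. All 3 HOXD10 probe sets were under the floor on the p53 off array and above it on the p53 on array, and the bounds differ because each depends on how bright that probe set was with p53 on.

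HOXD8, the gene next to HOXD9 on its anterior side, read 110.8 with p53 off, just under the floor, and 742.2 with p53 on, at least 6.60-fold higher on its single probe set. HOXD11, a gene of forearm and kidney development, read 29.2 and 499.0, at least 4.44-fold higher on its single probe set. HOXD9 read 57.5 and 226.9 on its brightest probe set, at least 2.02-fold higher. Its other probe set was above the floor on both arrays and read 119.5 and 147.1, a fold of 1.23. HOXD9 was thus higher on both of its probe sets but past 2-fold on only 1 of them. With spike-in scaling, the log2 bound of the first probe set was 0.095, and the p53 on signal of the other was under the floor, with a log2 bound of -0.089.

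HOXD13, the most posterior gene of the cluster and a regulator of digits and the hindgut, read 8.1 and 250.7, at least 2.23-fold higher. Its other probe sets stayed under the floor, at 4.1 and 68.5 for one and 13.5 and 8.7 for the other. HOXD13 was therefore higher on 1 of 3 probe sets. HOXD1, the most anterior gene, read 82.7 and 207.9, at least 1.85-fold higher, and its second probe set was under the floor on both arrays. Its log2 bound was as low as 0.30 in the settings without spike-in scaling, and HOXD1 was not measured with spike-in scaling. HOXD4 read 110.0 and 86.9, and HOXD12 read 32.8 and 13.1. The 3 probe sets named for HOXD3 together with HOXD4 were all under the floor on both arrays, from 7.4 to 33.3.

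In gene order, the neighbours HOXD8 to HOXD11 were above the floor with p53 on, as were HOXD13 and HOXD1 at the ends of the cluster, while HOXD12 and HOXD4 were under it on both arrays. Genes beside the cluster were lower on their brightest probe sets. LNPK, on the posterior side, read 891.1 and 606.4, a log2 ratio of -0.56 with 1 of its 3 measured probe sets higher, and MTX2, on the anterior side, read 2367 and 1108, a log2 ratio of -1.09. The noncoding genes of the cluster were dim. HAGLR, beside HOXD1, read 97.5 and 138.6, and HOXD-AS2, beside HOXD8, read 146.2 and 155.8, a log2 ratio of 0.092 that was below 0 with spike-in scaling, where the p53 on signal was under the floor.

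In the HOXC cluster, HOXC4 had a signal of 78.5 and 442.3, at least 3.94-fold higher. HOXC5 read 78.0 and 362.5, at least 3.23-fold higher. HOXC6, which was above the floor on both arrays, read 990.9 and 1500 and was 1.51-fold higher; its log2 ratio of 0.60 became -0.32 with spike-in scaling, 0.50 above the median gene. The RefSeq gene models of HOXC4, HOXC5 and HOXC6 begin at the same position and can share the first part of a transcript, so their probe sets need not be separate measurements. Each had 1 probe set.

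HOXC8, a gene of forelimb-level motor neurons, read 110.0 and 201.0, at least 1.79-fold higher. HOXC9 read 29.9 and 116.8, just past the floor with p53 on, at least 1.04-fold higher. The genes beyond them were close to the floor and nearly level. HOXC10 read 144.4 and 157.2, HOXC11 read 179.2 and 139.7, and HOXC12 read 139.4 and 126.3, with log2 ratios of 0.12, -0.36 and -0.14. The sign of HOXC10 was negative in 3 of 10 settings (quantile normalization, loess and spike-in scaling). HOXC13, a gene of hair and nail keratin control, read 19.3 and 62.4. HOXC4, HOXC5, HOXC6 and HOXC8 were thus each more than 1.5-fold higher. HOXC8 was just under the floor with p53 off, and its log2 bound fell to 0.25 with the higher floor. With spike-in scaling HOXC8 was not measured. HOXC9 cannot be placed against these genes, since its ratio is a bound close to the floor that reached 1.93 on the log2 scale with a pseudocount of 1.

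Among HOXB, HOXC and HOXD, the HOXB cluster had the most genes above the floor with p53 off, 8 of 10. Most HOXA genes had no probe set named for them in the annotation used here and could not be counted. HOXB3, an anterior gene of hindbrain and blood progenitors, read 8651 and 4139 and was 2.09-fold lower. The second probe set of HOXB3 read 329.8 and 85.4, at least 2.93-fold lower. HOXB7, a central gene, read 5288 and 2831, 1.87-fold lower, with its other probe sets 1.92-fold (4630 and 2406) and 3.90-fold lower (2797 and 717.8). HOXB3 and HOXB7 were therefore lower on all 5 of their probe sets together, by amounts from 1.87-fold upward.

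HOXB2 read 268.8 and 173.4, 1.55-fold lower, and HOXB8 read 375.3 and 267.6, 1.40-fold lower. HOXB4, a gene known for expanding blood stem cells, read 155.6 and 97.2, at least 1.38-fold lower. HOXB6 read 2041 and 1676, 1.22-fold lower, and its dimmer probe set 193.8 and 48.4, at least 1.72-fold lower. HOXB9 read 1014 and 948.3, 1.07-fold lower, with the other probe set 1.88-fold lower at 506.5 and 269.7. HOXB9 was slightly higher after loess, at a log2 ratio of 0.16. HOXB5 was level, with a log2 ratio of 0.056 on one probe set (589.2 and 612.4) and -0.039 on the other (606.0 and 589.7), and with spike-in scaling these were -0.86 and -0.96. Among the measured HOXB genes, 7 of 8 had a log2 ratio under 0, against 49.8% of all measured genes, and 3 were at least 1.5-fold lower, against 25.9%. These shares are not a like comparison. All 8 HOXB genes were above the floor with p53 off, while 2069 of all measured genes were under it and cannot have a ratio under 0. At least 2-fold lower was 1 of the 8, against 15.9% of the 11846 genes above the floor with p53 off. The median of the measured HOXB genes was -0.48. With spike-in scaling it was -1.23, with the median of all genes then at -0.83.

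Both ends of the HOXB cluster were dim. HOXB1, of hindbrain patterning, read 63.6 and 102.9 on its brighter probe set. HOXB13, a posterior gene known from prostate and distal colon, read 97.8 and 18.3 on one probe set and 59.3 and 20.5 on the other. Noncoding transcripts among the HOXB genes were lower as well. HOXB-AS3, a noncoding gene beside HOXB5 and HOXB6, read 9881 and 8545, and all 5 of its probe sets were lower. The probe set of MIR10A, the microRNA gene beside HOXB4, read 791.9 and 487.9, 1.62-fold lower; it was chosen after its value was seen. SKAP1, beyond HOXB1, read 493.9 and 285.3, and SNX11 beyond SKAP1 953.1 and 230.3, 4.14-fold lower. The other SNX11 probe set had a log2 ratio of -0.41, which is also the value when probe sets marked for shared sequence are left out.

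Of the HOXA cluster only HOXA2, which patterns the pharyngeal arches, had a probe set named for it in the annotation used here. HOXA2 was level at 181.7 and 168.3, a log2 ratio of -0.11. Noncoding genes of the cluster gave the remaining view. HOXA11-AS read 438.4 and 1148, with a log2 ratio of 1.39 and both probe sets higher. HOXA-AS3 read 118.1 and 318.6, a log2 ratio of 1.43, on its single probe set. HOXA-AS2 read 8.2 and 243.1 on its brightest probe set, with 1 of its 3 measured probe sets lower. On its brightest probe set it was measured only through the p53 on array, so its part in the count below is no support for a shift. HOXC-AS3, beside HOXC10, was under the floor with p53 off and read 142.6 with p53 on, a log2 ratio of 0.34 as a bound. HOTTIP, at the posterior end of HOXA, read 711.0 and 648.1. Of the 9 measured noncoding genes in a list of 18 from all clusters, 3 passed 2-fold upward and 0 downward, against 15.3% and 13.5% of all measured genes, with a median of 0.30. The upward count was 1 with the mean of probe sets or the higher floor. With spike-in scaling 0 passed upward and 2 downward with a median of -0.45, beside -0.83 for all measured genes. HOTAIR of the HOXC cluster was under the floor at 3.7 and 3.0.

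**Figure D2:**
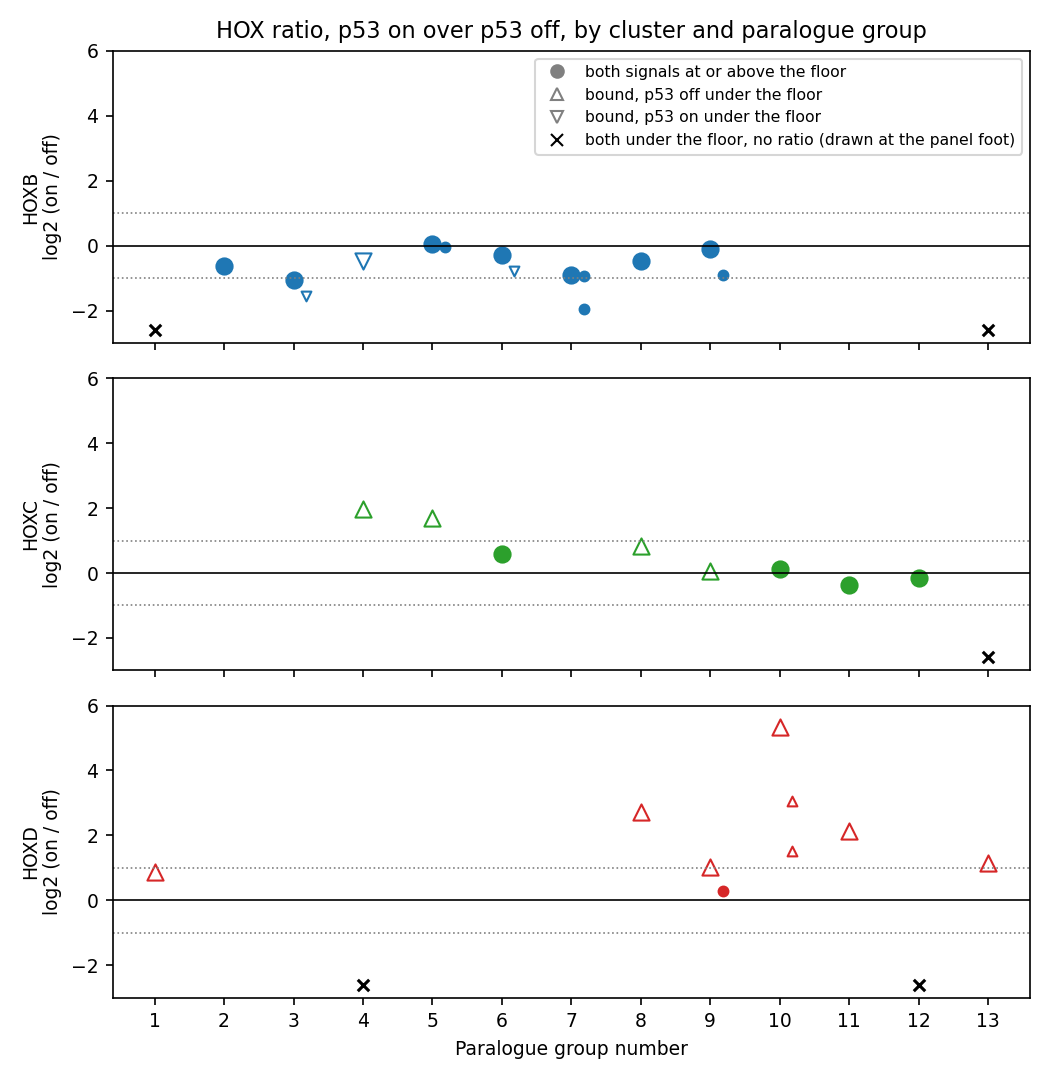
Log2 ratio of p53 on over p53 off for every measured probe set of the HOXB, HOXC and HOXD genes by paralogue number, with large symbols for the brightest probe set and small ones for the others. Triangles are bounds with 1 signal under the floor, crosses are genes with no ratio and dotted lines mark 2-fold. HOXB symbols lie mostly under 0, HOXC4 and HOXC5 lie at 1.98 and 1.69, and HOXD8, HOXD10 and HOXD11 lie at 2.72, 5.33 and 2.15.

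Set side by side by paralogue number, the same position gave different values in different clusters. In group 8, HOXB8 was 1.40-fold lower, HOXC8 at least 1.79-fold higher and HOXD8 at least 6.60-fold higher. In group 9, HOXB9 was 1.07-fold lower, HOXC9 at least 1.04-fold higher and HOXD9 at least 2.02-fold higher. The HOXC9 bound lies close to the floor and cannot be placed against the others. The other probe sets were 1.88-fold lower for HOXB9 and 1.23-fold higher for HOXD9, so the sizes in this group depend on the probe set. In group 10, HOXC10 was 1.09-fold and HOXD10 at least 40.3-fold higher. In group 11, HOXC11 was 1.28-fold lower and HOXD11 at least 4.44-fold higher. Group 4 had HOXB4 at least 1.38-fold lower, HOXC4 at least 3.94-fold higher and HOXD4 under the floor on both arrays. By paralogue class, the medians were -0.37 for the 4 measured anterior genes (1 to 3), 0.33 for the 10 central genes (4 to 8) and 0.12 for the 9 posterior genes (9 to 13), and each class ranged over both signs. By cluster they were -0.48 for HOXB, 0.36 for HOXC and 1.65 for HOXD. The HOXD median rests on bounds alone and the HOXC median on 4 bounds among 8 genes, and no test of these differences was made. On the probe sets used, each of these bounds is of a gene measured only through the p53 on array, which cannot have a ratio under 0. The measured HOXB genes were all above the floor with p53 off and could be lower or higher. The cluster medians are therefore not a like comparison.

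Of 7 measured TALE cofactors in a list of 9, which bind DNA together with HOX proteins, 1 passed 2-fold downward and 0 upward. Their median was -0.10. The shares of all measured genes were 13.5% and 15.3%, here and for the lists that follow. The measured TALE, Polycomb and trithorax genes were all above the floor with p53 off. Over all genes above it with p53 off, the shares were 15.9% downward and 13.3% upward, a closer comparison for these lists. The call on PKNOX1 was lost after loess, with a pseudocount equal to the floor and with the mean of probe sets. PKNOX1 read 684.7 and 333.9, a log2 ratio of -1.04 with 1 of its 3 measured probe sets higher, and PBX4, PBX2 and MEIS2 had log2 ratios of -0.56, -0.29 and 0.29, the last below 0 with spike-in scaling. MEIS1 was under the floor on both arrays. Of the ParaHOX and CDX genes, CDX2, an intestinal transcription factor and an inducer of HOX clusters, read 689.7 and 461.3, a log2 ratio of -0.58 with both probe sets lower. GSX2 was the other measured gene of this list of 6, at 131.6 and 42.6, and CDX1, CDX4, GSX1 and PDX1 were under the floor on both arrays.

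Chromatin regulators of the clusters had ratios in both directions. Of 24 measured Polycomb genes in a list of 28, 6 passed 2-fold downward and 4 upward, and their median was -0.12. With spike-in scaling these were 12, 2 and -1.01, and the median of all measured genes was then -0.83. The shares of all measured genes given above do not apply to counts with spike-in scaling, here and for the lists that follow. CBX2, a chromobox reader of the Polycomb mark, read 1004 and 21.1, at least 8.94-fold lower, with 1 of its 3 measured probe sets higher. AEBP2, a cofactor of the methylating complex, read 1450 and 392.6, 3.69-fold lower, and the core subunits SUZ12 and EZH2 had log2 ratios of -1.47 and -1.24, with the other measured SUZ12 probe set at -0.13. EED, another core subunit, was higher on both probe sets, and the brighter one read 3655 and 11210, a log2 ratio of 1.62. KDM2B, which recruits Polycomb to CpG islands, read 1302 and 11445, a log2 ratio of 3.14, and PCGF5 read 1254 and 5368, a log2 ratio of 2.10 with all 5 probe sets higher.

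Of 13 measured trithorax and demethylase genes in a list of 14, 3 passed 2-fold downward and 1 upward, and their median was -0.40. With spike-in scaling these were 9, 0 and -1.32, beside a median of -0.83 for all measured genes. MEN1, the menin scaffold needed for HOX activity, read 2240 and 747.2, a log2 ratio of -1.58. KMT2A, the methyltransferase best known for keeping HOX genes active, read 828.0 and 307.7, 2.69-fold lower, with all 8 measured probe sets lower, from -1.97 to -0.012 on the log2 scale. KMT2D had a log2 ratio of -1.11 with all 3 measured probe sets lower, and KMT2C of 1.80 with all 5 higher. The demethylase genes KDM6A and KDM6B had log2 ratios of 0.051 and 0.30, both below 0 with spike-in scaling.

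In the retinoic acid list of 17 genes, 13 were measured, of which 5 passed 2-fold upward and 0 downward, and their median was 0.46. With spike-in scaling these were 3, 1 and -0.19, beside a median of -0.83 for all measured genes. DHRS3, a retinaldehyde reductase that is itself induced by retinoic acid, read 282.3 and 4374, a log2 ratio of 3.95. RDH10, which makes retinaldehyde from retinol, read 1039 and 12075, a log2 ratio of 3.54 with all 3 measured probe sets higher, and ALDH1A3, which makes retinoic acid, read 483.0 and 2376, a log2 ratio of 2.30. RXRA had a log2 ratio of 1.69. The receptors RARA and RARG had log2 ratios of -0.0018 and 0.13, the latter below 0 with spike-in scaling. RARB read 130.6 and 81.1, and CYP26B1 read 425.0 and 422.9. CYP26A1 read 40.8 and 154.2, a log2 bound of 0.46, and was not measured with spike-in scaling. Of the 13 measured genes, 9 were above 0 and 4 below. Whether retinoic acid signalling differed was not tested.

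Homeobox genes of the same class outside the clusters were set beside the HOX genes. Of 42 listed, 35 had a probe set, 15 were measured, 5 passed 2-fold upward and 1 downward. Of the 5 upward, 4 were under the floor with p53 off and were measured only through the p53 on array. The upward count is therefore no support for a shift. With spike-in scaling 3 passed upward. A pseudocount of 1 gave 8 upward and 10 downward, but it also counts the 20 genes with both signals under the floor. The shares of all measured genes given above apply to neither setting. Of the 25 listed genes that were under the floor with p53 off, 5 were above it with p53 on (20.0%). This compares with the 10 of 15 HOX genes and 26.1% of all genes, a difference that was not tested. EN2 read 35.1 and 1171, a log2 ratio of 3.38 as a bound. DLX6 read 96.3 and 639.9 and DLX1 read 9.7 and 560.1, with log2 ratios of 2.51 and 2.32 as bounds and 2 measured probe sets each higher. MNX1 was lower, at 605.2 and 13.6, at least 5.39-fold lower. Of the 17 listed genes near the clusters, 12 were measured, all of them above the floor with p53 off. Of these, 11 were below 0, against 49.8% of all measured genes, a share that includes genes measured only through the p53 on array. Past 2-fold were 4 downward and 0 upward, against 15.9% and 13.3% of the 11846 genes above the floor with p53 off. The median was -0.88. With spike-in scaling 11 passed downward, and the median of all measured genes was then -0.83. The 4 past 2-fold downward were SNX11, HIBADH, CBX5 and MTX2, at log2 ratios of -2.05, -1.45, -1.27 and -1.09. However, 2 of the 4 CBX5 probe sets were higher, and SNX11 was past 2-fold on 1 of its 2.

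**Figure D3:**
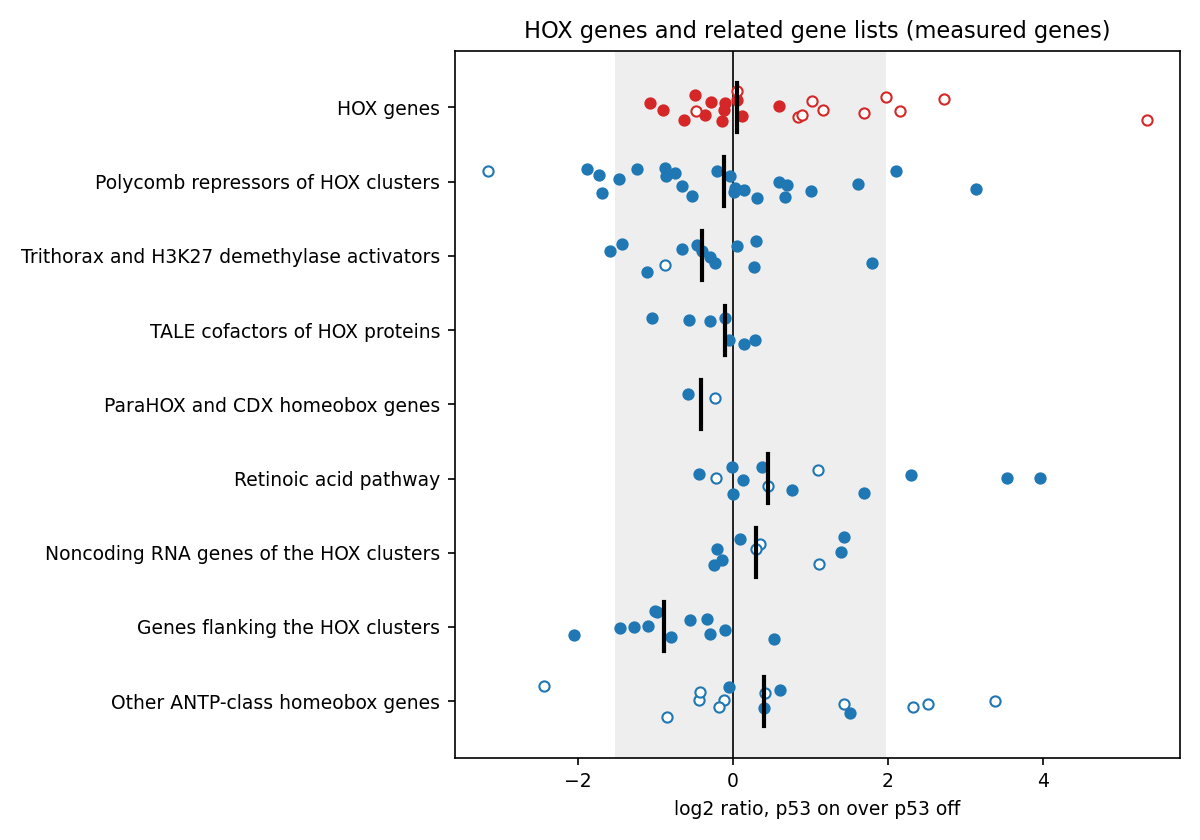
Log2 ratios of p53 on over p53 off for measured HOX genes (red) and genes of 8 related lists (blue), with open symbols for bounds, a black bar at each median and a grey band from the 5th to the 95th percentile of all measured genes (-1.50 to 1.96). The HOX median lies at 0.056 with a tail of bounds to the right, and the genes near the clusters have their median at -0.88.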

How the data were processed

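The deposited values are linear signal intensities, given by the authors for 54675 probe sets on 2 arrays. MAS5 is the tool named in the submitters' processing notes; its version and settings are not stated there. RNA was labelled by the standard Affymetrix method, per the labels' protocols. The 2% trimmed mean was 500.1 on both arrays, and no scaling was added. The number of arrays limits the precision.

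Leaving out 62 controls, 41091 probe sets carried a single gene symbol, 1801 carried several and 11721 were unnamed. Gene identifiers led to current RefSeq symbols (GRCh38.p14) for 41037. The floor was the 50th percentile of signals, and genes were counted at 2-fold and 1.5-fold. The text names every member with a ratio and the 4 largest ratios of each related list; other names were picked with their values known. The members and lists were chosen with earlier results of these data known. The gene of p53 itself is not reported here. Protein sequences were not used here. The steps were tested on simulated data, with upward folds put on genes well above the floor. Ratios that are bounds were therefore not covered by it. Work was done in Python 3.11.15 (numpy 2.4.6, pandas 2.3.3), with scipy 1.17.1 and statsmodels 0.14.6 for statistics, and plots came from matplotlib 3.10.9.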

Additional observations from a re-analysis of the deposited data

Results flagged for a closer look

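Control probe sets, which enter none of the HOX values, gave unequal readings on the arrays. The ratio of 3' to 5' signal for beta-actin was 7.29 with p53 on, against 1.37 with p53 off. For GAPDH it was 1.77 with p53 on, against 0.97. Over 18 spike-in probe sets, the ratio of p53 on to p53 off had a median of 1.89 and lay between 1.47 and 2.59.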

How the results depend on the processing

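The 10 alternatives were a lower floor (percentile 40), a higher floor (percentile 60), a pseudocount of 1 or of the floor's value in place of a floor, centring, quantile normalization, loess (span 0.3), spike-in scaling, the mean of measured probe sets, and leaving out probe sets marked for shared sequence. HOXC4, HOXD8, HOXD10 and HOXD11 were at least 2-fold higher under every one of them. HOXD13 was so in 9 of 11 settings and HOXD9 in 5. With spike-in scaling another HOXD9 probe set became the brightest and gave a bound of -0.089, while the first gave a bound of 0.095. Keeping the probe set was an alternative chosen after seeing the data. HOXB3 was at least 2-fold lower in 10 of 11 settings and at -0.995 after loess. The count of HOX genes at least 2-fold higher was 4 with spike-in scaling. The count at least 2-fold lower was 3 with a pseudocount of 1, 0 after loess, 6 with spike-in scaling and 2 with the mean of probe sets. With spike-in scaling the median was -0.42 for HOX genes and -1.23 for HOXB genes, beside -0.83 for all measured genes. The cause was not tested. No paired analysis was possible because each condition has 1 array.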
